A study of Mus musculus with 12 samples.

Results

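The 9 genes Stat2, Stat3, Stat4, Stat5a, Stat6, Socs1, Socs3, Cish and Pim1 encode STAT transcription factors and products of genes that activated STATs switch on. They were taken by gene symbol from 12 tables of estimated read counts, out of 52553 features in all. The first 5 are STAT factors, and the other 4 are feedback or target genes. All 9 passed the filter on low counts, which kept 20135 features. The mice were C57BL/6 males, and every library was made from CD115+ cells pooled from 5 mice and enriched on magnetic beads from the mononuclear fraction of blood or spleen. CD115 is the receptor for colony stimulating factor 1 and is carried by monocytes. Intact animals kept both the spleen and the liver, while resected animals kept the spleen and lost 70% of the liver. There were 3 libraries in each of the 4 groups, namely intact spleen, resected spleen, intact blood and resected blood. Cells of resected animals were taken 24 h after surgery. Control animals for these libraries were labelled intact. The study also had sham-operated controls with an intact liver, and whether any of them gave these libraries is not given in the sources used here. The effects of anaesthesia and laparotomy and those of liver loss therefore cannot be told apart. Splenic cells were released with collagenase and treated with a red cell lysis solution, steps that are not described for blood, and tissue and preparation cannot be told apart either.

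Cytokine receptors of this pathway have no kinase activity of their own and rely on bound Janus kinases (JAKs). When a cytokine binds, the JAKs phosphorylate the receptor, STAT proteins dock there, are phosphorylated in turn, pair up and move to the nucleus. STAT3 acts downstream of interleukin 6, oncostatin M and interleukin 10, STAT2 downstream of interferons, STAT4 downstream of interleukin 12, STAT5 downstream of GM-CSF and interleukin 3, and STAT6 downstream of interleukins 4 and 13. Among the genes they switch on are inhibitors that close the loop. SOCS1 and SOCS3 bind JAKs or receptors and block signalling, CISH (cytokine-inducible SH2 protein) restrains STAT5 signalling, and PIM1 is a serine/threonine kinase that favours survival and is induced by STAT3 and STAT5. In regenerating liver, interleukin 6 and STAT3 are known for their part in the early response of hepatocytes, and SOCS3 for limiting it.

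The DNA letters that STAT dimers prefer, TTCNNNGAA, read the same on both strands. They were searched in RefSeq promoter windows of build GRCm38.p6, each with 250 bases before and 50 after a transcript start. All 9 genes had a window, 12 windows in all, and 2 of them held the letters. Of 32851 mouse windows of the same length, 8.3% held them at least once and 0.457% held them 2 or more times. The stretches below are shown because they carry these letters in the genes of 2 feedback inhibitors. The Socs3 stretch, chr11:117969367-117969616 on the minus strand, ends just before a start site that lies 970 bases inside the gene's outermost RefSeq start. The Cish stretch, chr9:107296654-107296683 on the plus strand, spans its start site. Capitals mark the matches.
Socs3: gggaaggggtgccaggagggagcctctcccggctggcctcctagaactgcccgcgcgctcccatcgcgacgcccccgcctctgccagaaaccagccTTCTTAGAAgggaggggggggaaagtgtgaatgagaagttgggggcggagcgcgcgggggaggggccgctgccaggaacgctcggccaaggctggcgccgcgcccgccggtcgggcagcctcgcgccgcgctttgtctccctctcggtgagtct
Cish: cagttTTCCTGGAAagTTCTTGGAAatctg
The Socs3 match began at base -154, counted from the start site. The 2 Cish matches began 1 and 12 bases into the transcript. Letters with a wider gap, TTCNNNNGAA, a spacing that STAT6 is known to accept, were held by 6.95% of all windows, and among the 9 genes by that of Stat2. The Stat2 stretch is chr10:128270278-128270307 on the plus strand, with its match beginning at base -210.
Stat2: tcagtttcctTTCCCTAGAActcacggttc
A match of letters is a description of the sequence and not a binding site, and the 2 patterns do not overlap in these stretches.

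The 12 libraries held 36990033 to 46401368 counts. All 8 monocyte markers, among them Csf1r, Ly6c2 and Lyz2, were above 3 counts in every library, and markers of other blood cells were present too. Levels below are given in CPM, the count relative to a library size scaled by the trimmed mean of M values (TMM). The summed CPM of 8 neutrophil markers was 787 to 1747 in intact spleen, 4971 to 14195 in resected spleen, 101 to 298 in intact blood and 3513 to 18617 in resected blood. The 8 T cell markers summed to 193 to 358, 85 to 122, 809 to 2426 and 141 to 284 CPM in the same order. Monocyte markers summed to 2519 to 2762, 1950 to 2911, 2951 to 8150 and 8801 to 11305 CPM. Markers of peritoneal macrophages summed to 307 to 993 CPM in intact blood and 4426 to 5596 CPM in resected blood, and those of red pulp macrophages to 175 to 362 and 1515 to 2039 CPM. Haemoglobin transcripts took 13.2% to 34.2% of counts in blood and 0.0814% to 3.47% in spleen. Intact blood library 3 held the highest T cell sum, and library 3 of each resected group the highest neutrophil sum of its tissue, and results that rest on these 3 libraries are given with and without them. Fewer cells of a type and less RNA per cell cannot be told apart in such bulk samples.

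After liver resection Socs3 was called higher in the CD115+ fraction of blood, and in the CD115+ fraction of spleen none of the 9 genes was called. Stat2 was lower by similar log2 amounts in both tissues, -0.81 in blood and -0.77 in spleen, and was called in neither. Markers of other cells were present in these fractions too. Neutrophil sums exceeded monocyte sums in every resected spleen library and in resected blood library 3, where they were 18617 and 8801 CPM. Sums of different markers do not compare amounts of cells. In intact spleen 8 B cell markers summed to 4968 to 5605 CPM, above the monocyte sums of 2519 to 2762 CPM, and 6 plasma cell markers to 2215 to 3081 CPM. In resected spleen the B cell sums were 1385 to 4291 CPM. A gene was called when the edgeR quasi-likelihood test gave a Benjamini-Hochberg adjusted p below 0.05 over all features and the log2 fold change exceeded 1 in size. By this rule 1 of 9 genes, Socs3, was called in blood, where 13.9% of all features were, and 0 of 9 in spleen, where 1.38% were. On the adjusted p alone 2 of 9 passed in blood, against 21.1% of all features, and 0 of 9 in spleen, against 2.05%. At an unadjusted p under 0.05 the counts were 6 of 9 in blood and 2 of 9 in spleen, with 35.9% and 20.8% of all features. DESeq2 called 0 of 9 in spleen as well. The 3 resected libraries did not overlap the 3 intact ones for 7 of 9 genes in blood and for 3 of 9 in spleen, against 38.4% and 35.1% of all features. The median log2 fold change over the 9 genes was 0.61 in blood and -0.02 in spleen, beside -0.10 and 0.05 over all features. Since libraries are pools of animals, the p-values measure the spread between pools.

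**Figure D1:**
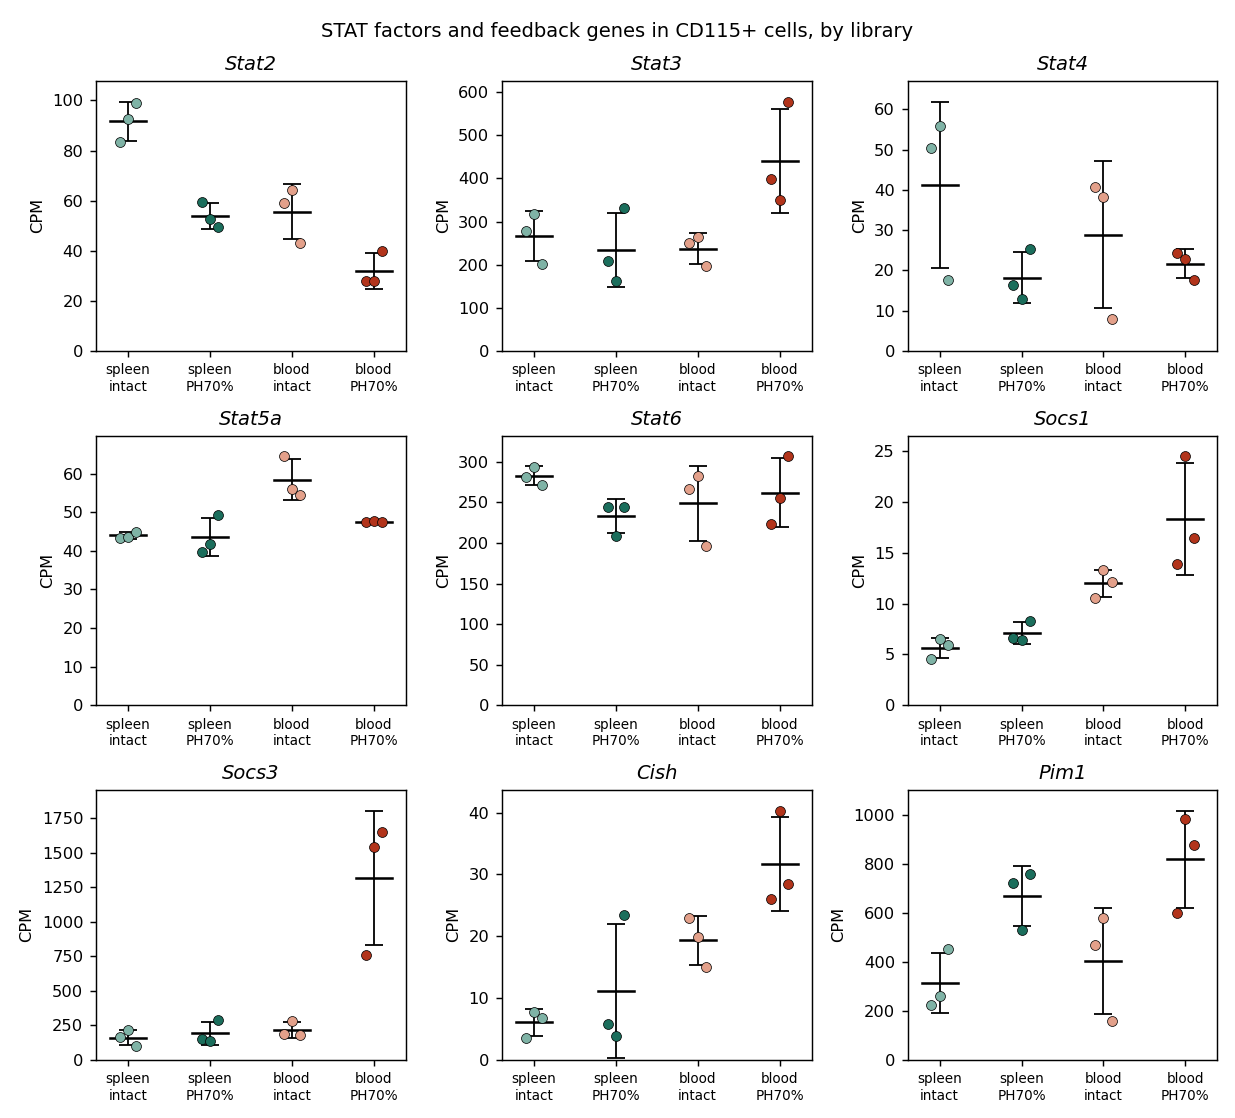
Level of each gene in CPM (vertical axes, starting at 0) in the 4 groups, with a point per library, a bar at the mean and whiskers of 1 SD (n = 3). Socs3 in resected blood, at 759 to 1648 CPM, lies above the other 9 libraries, while Stat2 is lower in both resected groups than in the intact group of the same tissue.

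Socs3, the inhibitor that binds the gp130 receptor chain and its JAKs, stood at 185, 284 and 178 CPM in the 3 intact blood libraries. After resection it stood at 759, 1543 and 1648 CPM. All 3 resected blood libraries were far above the intact ones, and the lowest of them was above every spleen library. The increase was 6.11-fold, a log2 fold change of 2.61 (SE 0.43, edgeR adjusted p = 0.00341). Socs3 passed the same rule in 23 of 23 alternative analyses, with log2 fold changes from 2.30 to 2.90. In spleen, Socs3 was at 162, 212 and 103 CPM in intact and 148, 136 and 288 CPM in resected libraries. These ranges overlapped, and the highest value belonged to resected library 3, which also held the highest neutrophil sum of the spleen. The log2 fold change in spleen was 0.26 (SE 0.40, edgeR adjusted p = 0.768), and without that library it was -0.16. Neutrophil markers moved with Socs3 in blood, where 8 of 8 were called higher, and 7 of 8 T cell markers were called lower. Macrophage markers moved with it too, with 7 of 7 of red pulp and 4 of 6 of peritoneal macrophages called higher in blood. In spleen 0 markers of either macrophage type were called. Red pulp sums there were 1076 to 1656 CPM in intact and 1422 to 4027 CPM in resected libraries, beside 1515 to 2039 CPM in resected blood. Peritoneal sums were 58.8 to 84.2 CPM in intact and 53.4 to 410 CPM in resected spleen, beside 4426 to 5596 CPM in resected blood. In resected spleen the neutrophil sums of 4971 to 14195 CPM stood beside Socs3 levels of 136 to 288 CPM. Without the 3 libraries that stand apart the blood value was 2.30 (edgeR adjusted p = 0.013). The part of the other cell types in the increase was not tested.

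Socs1, which inhibits interferon receptors and JAKs directly, was at 10.6, 13.3 and 12.1 CPM in intact blood and 13.9, 24.5 and 16.5 CPM in resected blood. The libraries did not overlap, but the log2 fold change of 0.61 (SE 0.25) did not pass the test (edgeR adjusted p = 0.103). Splenic levels were the lowest, at 4.52, 6.49 and 5.94 CPM in intact and 6.66, 6.38 and 8.31 CPM in resected animals. Those groups overlapped by a single library, with a log2 fold change of 0.33 (SE 0.25, edgeR adjusted p = 0.480).

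Cish, the inhibitor linked to STAT5, read 22.9, 19.9 and 15 CPM in intact blood and 26, 40.3 and 28.5 CPM after resection. Every resected blood library exceeded every intact one, yet the log2 fold change of 0.71 (SE 0.58) did not pass the test (edgeR adjusted p = 0.414). Intact spleen gave 3.54, 7.79 and 6.81 CPM. Resected spleen gave 5.86, 3.91 and 23.5 CPM, so that resected library 3, the one with a neutrophil sum of 14195 CPM, stood far above the others. The splenic log2 fold change of 0.87 (SE 0.59, edgeR adjusted p = 0.436) turned to -0.31 without it, and the part of neutrophils in that value was not tested.

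Pim1, the survival kinase, read 469, 580 and 160 CPM in intact blood and 600, 983 and 877 CPM in resected blood. In spleen it read 225, 261 and 454 CPM before and 724, 531 and 758 CPM after resection. The resected libraries lay above the intact ones in both tissues, and the log2 fold changes were alike in size, 1.03 (SE 0.44) in blood and 1.10 (SE 0.44) in spleen. Neither passed over all features (edgeR adjusted p = 0.125 and 0.193). The low value of 160 CPM came from intact blood library 3, the one with the highest T cell sum, and without it the blood value was 0.64. Without the 3 libraries that stand apart the blood values were 0.69 for Socs1, 0.63 for Cish and 0.60 for Pim1, none of them called.

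Stat2, which acts in the interferon-activated complex ISGF3, was at 59.1, 64.4 and 43.2 CPM in intact blood and 27.7, 27.7 and 40 CPM in resected blood. Spleen held 83.5, 92.5 and 99 CPM in intact and 59.6, 52.5 and 49.3 CPM in resected animals. Intact and resected libraries were apart in both tissues, with the resected ones lower. The log2 fold change in blood, -0.81 (SE 0.19), passed the adjusted p of edgeR at 0.0156 but not the fold limit, and over the alternatives that p ran from 0.00154 to 0.0781. It was above the threshold in 4 of 12 omissions, those of library 1 or 2 of intact or of resected blood, and with only the groups compared. Without the 3 libraries that stand apart it was -1.16 (edgeR adjusted p = 0.00185), past both limits. The splenic value of -0.77 (SE 0.19) missed the threshold (edgeR adjusted p = 0.0656), although DESeq2 gave -0.78 with an adjusted p of 0.00395.

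Stat3, the factor downstream of interleukin 6 family cytokines, was measured at 250, 265 and 196 CPM in intact blood and 398, 349 and 578 CPM in resected blood. The groups did not overlap, and the log2 fold change of 0.90 (SE 0.30) lay just outside the threshold (edgeR adjusted p = 0.0559). DESeq2 gave 0.92 with an adjusted p of 0.0147, under the same fold limit not a call. Without the 3 libraries that stand apart the edgeR value was 0.53 (adjusted p = 0.128). In spleen the values were 279, 317 and 202 CPM before and 208, 163 and 331 CPM after resection, overlapping widely, with a log2 fold change of -0.18 (SE 0.29, edgeR adjusted p = 0.780).

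Stat4, best known from T cells and natural killer cells, varied widely among the libraries of a group. Intact spleen gave 50.3, 55.9 and 17.7 CPM and intact blood 40.7, 38.3 and 7.86 CPM. Resected spleen gave 16.4, 13 and 25.2 CPM and resected blood 24.4, 22.9 and 17.6 CPM. Library 3 of both intact groups fell below the others, and the groups overlapped in both tissues. The log2 fold changes were -0.42 (SE 0.58, edgeR adjusted p = 0.646) in blood and -1.18 (SE 0.58, edgeR adjusted p = 0.282) in spleen. The lowest Stat4 level of all, 7.86 CPM, belonged to the blood library with the highest T cell sum, 2426 CPM. Its natural killer marker sum was 152 CPM, the lowest of its group. The resected blood libraries had lower natural killer sums, 84.1, 110 and 43 CPM, at the higher Stat4 levels of 24.4, 22.9 and 17.6 CPM. The part of these cells in the Stat4 levels was not tested.

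Stat5a and Stat6 had the smallest log2 changes of the 9 genes in blood. Stat5a, which serves GM-CSF and interleukin 3 receptors, was at 64.5, 56.1 and 54.5 CPM in intact blood and 47.4, 47.6 and 47.5 CPM in resected blood. The resected libraries were almost equal and all lower, with a log2 fold change of -0.30 (SE 0.11, edgeR adjusted p = 0.0897). Intact spleen held 43.3, 43.7 and 45 CPM of Stat5a and resected spleen 39.7, 41.8 and 49.2 CPM (log2 fold change -0.02, SE 0.11, edgeR adjusted p = 0.963). Stat5a has a close paralog, Stat5b, and the way reads shared by both were counted is not given in the sources used here. Stat6, the factor of interleukins 4 and 13, was at 267, 283 and 196 CPM in intact blood and 224, 256 and 307 CPM in resected blood, and at 282, 294 and 272 CPM in intact spleen and 245, 209 and 245 CPM in resected spleen. Only the splenic libraries did not overlap. Its log2 fold changes were 0.08 (SE 0.17, edgeR adjusted p = 0.797) in blood and -0.28 (SE 0.17, edgeR adjusted p = 0.393) in spleen.

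**Figure D2:**
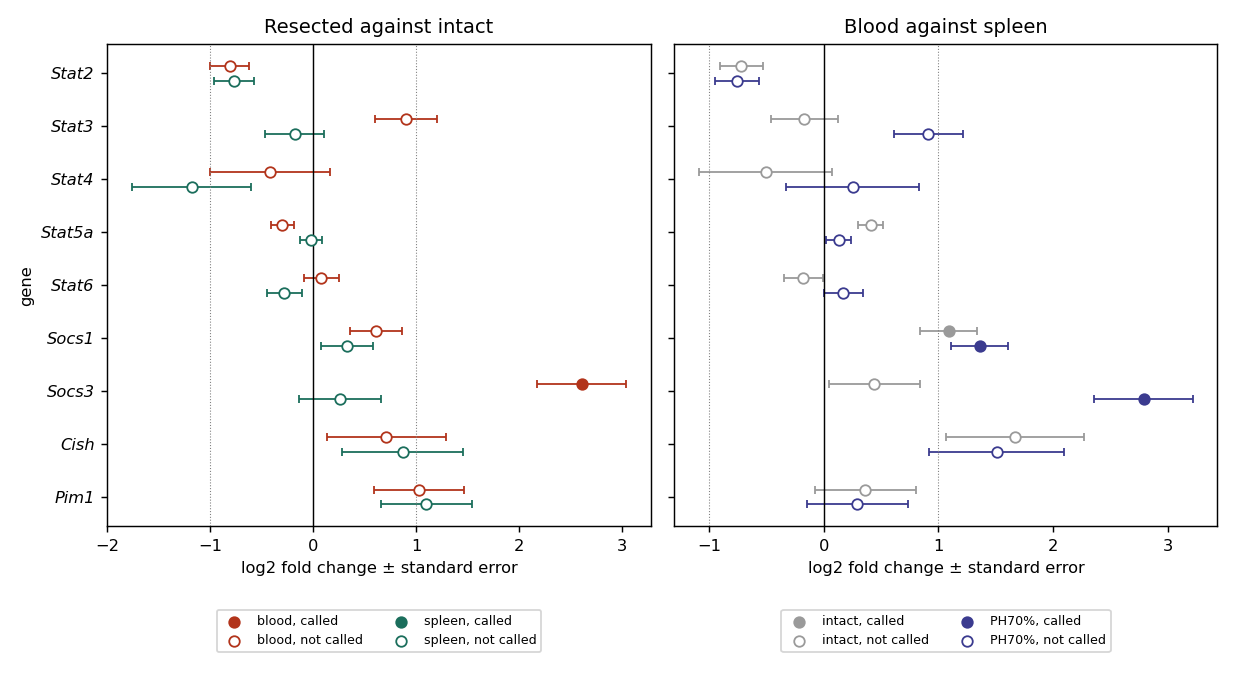
Log2 fold change of each gene (points) with its standard error (bars), resected against intact in each tissue on the left and blood against spleen in each state on the right. Filled points passed the adjusted p and the fold limit of 1 (dotted lines), and they are Socs3 in blood after resection, and Socs1 in both and Socs3 in one of the comparisons between tissues.

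Whether the response to resection differed between the tissues was tested as the interaction of tissue and resection. None of the 9 genes was called, against 0.283% of all features, and 2 of 9, Socs3 and Stat3, had an unadjusted p under 0.05, against 17.3%. For Socs3 the log2 response in blood exceeded that in spleen by 2.35 (SE 0.57, edgeR adjusted p = 0.121). DESeq2 placed the same difference at 2.39 with an adjusted p of 0.00206, a call. Over all alternatives its size ran from 2.09 to 2.78 and its adjusted p from 0.00206 to 0.326. The Stat3 difference was 1.08 (SE 0.42, edgeR adjusted p = 0.235). For Stat2 and Pim1, with differences of -0.04 (SE 0.27) and -0.07 (SE 0.62), no difference between tissues was detected.

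Blood and spleen were also compared directly within each state, in comparisons that share libraries with those above. In intact animals, 1 of 9 genes was called, against 7.35% of all features. Socs1 was 2.12-fold higher in blood (log2 fold change 1.09, SE 0.25, edgeR adjusted p = 0.0255), with no overlap between libraries. This call was lost in 5 of 23 alternatives, namely with only the groups compared in the fit (1.09) and without intact spleen library 1 (1.05), 2 (1.30) or 3 (1.22) or intact blood library 2 (1.06). On the adjusted p alone 2 of 9 passed, against 9.17%. The second was Stat2, lower in blood at -0.72 (SE 0.19, edgeR adjusted p = 0.0412), but it did not pass in any of the 12 omissions of a single library (-0.77 to -0.47) or with only the groups compared. Stat2 did pass the adjusted p with DESeq2 (-0.64, adjusted p = 0.0177) and without the 3 libraries that stand apart (-0.46, edgeR adjusted p = 0.0242). Cish was at 15 CPM or more in intact blood and at most 7.79 CPM in intact spleen, but its log2 difference of 1.67 (SE 0.60) did not pass (edgeR adjusted p = 0.111), whereas DESeq2 called it at 1.75 (adjusted p = 0.0242). In 4 of 9 genes the libraries of the 2 tissues did not overlap, against 34.5% of all features.

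In resected animals 2 of 9 genes were called, against 13.2% of all features. Socs3 was 6.9-fold higher in blood (log2 fold change 2.79, SE 0.43, edgeR adjusted p = 0.00278) and Socs1 2.57-fold higher (1.36, SE 0.25, edgeR adjusted p = 0.0058). Both calls held in 23 of 23 alternatives, over ranges of 2.70 to 3.31 and 1.18 to 1.67. Stat2 was again lower in blood, at -0.76 (SE 0.19, edgeR adjusted p = 0.0217), so that 3 of 9 passed the adjusted p alone, against 19.1%. The Stat2 value passed in 4 of 12 omissions and missed the threshold in 8, those of any intact spleen library, resected spleen library 1 or 2, intact blood library 1, or resected blood library 1 or 2. Stat3, at 349 CPM or more in resected blood and 331 CPM or less in resected spleen, had a log2 difference of 0.91 (SE 0.30, edgeR adjusted p = 0.0561) and passed both limits in 8 of 23 alternatives, DESeq2 among them (1.03). Cish read 1.51 (SE 0.59, edgeR adjusted p = 0.103), and 2.79 (edgeR adjusted p = 0.00316) without resected spleen library 3. Libraries did not overlap for 5 of 9 genes, against 42.4% of all features. Erythroid and platelet markers were higher in blood in both states, with 5 of 7 and 6 of 6 called. So were 5 of 6 peritoneal macrophage markers in both states, and 6 of 8 T cell markers in intact and 4 of 8 in resected animals. Called lower in blood were 3 of 6 plasma cell markers in intact and 4 of 6 in resected animals, and 3 of 6 of conventional dendritic cells in both. Of 7 red pulp macrophage markers, 3 were called lower in blood in both states, and 1 was called higher in resected animals. Neutrophil markers were called lower in 4 of 8 in intact and 2 of 8 in resected animals. The part of these cells in the differences was not tested. Leaving haemoglobin genes out of the library sizes ended neither Socs call.

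Levels can be set side by side between genes only per length, here as CPM per kb of all exons of the gene in GENCODE vM21. That length joins the exons of all annotated transcripts and can exceed the transcript present in the cells. The annotation used for counting is not known either, so the order may depend on this choice. In intact spleen the order was Pim1 (93.2 CPM per kb), Stat6 (64.2), Socs3 (55), Stat3 (27.9), Stat2 (15.5), Stat4 (10.7), Stat5a (6.17), Socs1 (1.94) and Cish (0.942). Libraries of Socs3 ranged from 35.8 to 73.2 CPM per kb and enclosed the whole range of Stat6, and those of Stat4, from 4.57 to 14.4, enclosed that of Stat5a, so these neighbours did not differ beyond their spread. In resected blood Socs3 came first at 455 CPM per kb and Pim1 followed at 244, with ranges of 262 to 570 and 178 to 292 that overlapped. Stat6 (59.6) and Stat3 (46.3) came next, and the other 5 genes lay between 4.92 and 6.66 CPM per kb with ranges that largely overlapped. Among the STAT factors Stat6 came first and Stat3 next in all 4 groups by mean level.

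The rest of the pathway was followed in lists of 110 genes, of which 99 were tested. In blood 34 of the 99 were called after resection, in spleen 3, and the same background of 13.9% and 1.38% of all features applies. Markers of neutrophils and macrophages moved in the same libraries, and their part in these counts was not tested. Among the ligands, 8 of 18 tested genes were called higher in blood and 0 lower, beside 7.8% called higher and 6.11% called lower over all features, and the list's median log2 fold change was 2.38. The list held 26 ligands, and those not tested were too low for the filter. Ifnb1, among those called, was at 0 counts in every intact library and at most 51 in resected blood. It passed the filter only through resected blood. Csf3, Il23a and Csf2, also called and named here for their low counts, had at most 4, 6 and 11 counts in any intact library. In resected blood they had at most 1137, 320 and 69. The list's count and median in blood were therefore partly set by the filter. In spleen 0 of 18 were called, and the median was 0.23. Oncostatin M (Osm), an interleukin 6 family cytokine that acts through gp130, was at 30.3, 21.1 and 13.2 CPM in intact blood and 207, 371 and 199 CPM in resected blood (log2 fold change 3.59, SE 0.44, edgeR adjusted p = 0.00124). Interleukin 6 itself (Il6) went from 2.23, 2.24 and 0.524 CPM to 25.5, 129 and 79.6 CPM (5.56, SE 0.75, edgeR adjusted p = 0.00161). The anti-inflammatory cytokine gene Il10 went from 1.68, 2.88 and 0.83 CPM to 29, 144 and 123 CPM (5.78, SE 0.79, edgeR adjusted p = 0.0017). All 3 of these ligands signal through STAT3, and each was called whichever of the 12 libraries was left out, with Il6 at 4.96 without resected blood library 2. In spleen Il6 was at 0.32 CPM or less in every library, and Osm read 51.9, 73.3 and 43.9 CPM before and 28.1, 59.3 and 65.1 CPM after resection (-0.15, SE 0.40, edgeR adjusted p = 0.878).

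Receptor genes were called higher in blood in 4 of 5 families, and in spleen 0 were called in any. Of the gp130 family, 3 of 7 tested genes were called higher, with a median of 1.20. They were Il11ra1 at 1.37 (SE 0.21), the G-CSF receptor Csf3r at 2.39 (SE 0.59) and the leptin receptor Lepr at 4.92 (SE 1.54). Levels of Lepr were low, at 0.138, 0.0514 and 0.24 CPM in intact blood, at most 11 counts. In resected blood they were 1.22, 1.05 and 11.1 CPM. The calls of Csf3r and Lepr depended on single libraries. Csf3r was not called without intact blood library 1 or resected blood library 3 (lowest value 1.77), and Lepr held only with the 3 resected spleen libraries left out in turn (3.00 to 5.51 over the 12 omissions), and Csf3r is also a neutrophil receptor. The shared chain gp130 itself, Il6st, was not called (-0.53, SE 0.28, edgeR adjusted p = 0.207), nor was the interleukin 6 receptor Il6ra (-0.46, SE 0.49, edgeR adjusted p = 0.536), both singled out after their values were seen. Of the receptors for GM-CSF, interleukin 3 and interleukin 5, 4 of 5 were called higher, with a median of 1.38. Csf2ra rose by 1.38 (SE 0.31) and Csf2rb2 by 2.57 (SE 0.63), both not called without resected blood library 3 (1.25 and 2.04), and Csf2rb rose by 1.99 (SE 0.56), a call lost without any of the 3 intact blood libraries or resected blood library 2 or 3 (lowest value 1.48). Among interferon, interleukin 10 and interleukin 12 receptors, 3 of 9 were called higher and 1 lower. Il10rb (1.42, SE 0.29), Ifnar2 (1.36, SE 0.28) and the lower Il12rb2 (-2.05, SE 0.38), a chain known from T and natural killer cells, were called whichever single library was left out. Without the 3 libraries that stand apart Il12rb2 was still called (-1.37), but Il10rb (0.94) and Ifnar2 (0.86) were not, and with only the groups compared the Il10rb call was lost (edgeR adjusted p = 0.059). Ifnlr1 (3.21, SE 0.81) was not called without intact blood library 1 or resected blood library 3 (lowest value 1.93). In the list of common gamma chain receptors, which also held Il13ra1, a partner of the interleukin 4 receptor alpha chain, 2 of 9 were called higher, Il15ra at 2.10 (SE 0.57) and Il13ra1 at 1.90 (SE 0.56), neither called without intact blood library 3 or resected blood library 2 or 3 (lowest values 1.74 and 1.48). The Il15ra call was also lost without intact blood library 1, and that of Il13ra1 without intact spleen library 1 or 2, resected spleen library 2 or intact blood library 2. None of the 4 homodimeric receptors was called in either tissue.

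Inside the cell, 0 of 4 Janus kinase genes were called in either tissue, with medians of 0.04 in blood and -0.15 in spleen. Socs7 was lower in blood at -1.06 (SE 0.22), not called without intact blood library 3 or resected blood library 1 (highest value -0.73), and Socs2 higher at 1.64 (SE 0.50), a call that held only without resected spleen library 3 or intact blood library 1 and was lost in the other 10 omissions (1.24 to 2.16). Among 11 other inhibitors 1 was called higher in blood, the phosphatase gene Ptpn1 (1.09, SE 0.31), and 0 in spleen. The Ptpn1 call was lost without library 1 or 2 of intact spleen, 1 or 3 of intact blood, or 2 or 3 of resected blood (lowest value 0.84).

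Genes reported as STAT targets in other cells were called in part. Of 8 listed for STAT3, 3 were called higher in blood, with a median of 0.94. The interleukin 1 receptor antagonist Il1rn rose by 5.53 (SE 1.08), from 5.59, 6.58 and 3.71 CPM to 39.5, 130 and 563 CPM, with the highest value in the library that held the highest neutrophil sum, and without that library the change was 4.03. Bcl3, a regulator of NF-kB, rose by 2.07 (SE 0.44), a call lost with only the groups compared (edgeR adjusted p = 0.0587), and the survival gene Bcl2l1 by 1.32 (SE 0.39). Bcl2l1 was the single STAT3 target called in spleen (1.86, SE 0.40), but its calls were lost in 8 of 12 omissions in blood (1.10 to 1.65), all but those of resected spleen library 1 or 3 and library 1 of intact or resected blood, and in 10 of 12 in spleen (1.29 to 2.17), all but those of resected spleen library 1 and intact blood library 3. Of 7 interferon-induced genes, 2 were called higher in blood, the chemokine gene Cxcl10 (4.96, SE 0.81) and Isg15 (1.74, SE 0.43), while 0 were called in spleen, where the median was -0.68. Isg15 was not called without library 2 of intact or of resected blood (lowest value 1.29). Of 4 STAT5 targets, Id2, an inhibitor of helix-loop-helix factors, rose in blood (1.12, SE 0.14) and spleen (1.07, SE 0.14), and Ccnd2, a cyclin, was lower in blood (-1.26, SE 0.37), though not without intact spleen library 1, intact blood library 1 or 2 or any resected blood library (highest value -1.01). The splenic Id2 call was lost without intact spleen library 1 or 2 or resected spleen library 3 (lowest value 1.02). Of 6 STAT6 targets, 2 were called higher in blood, the chitinase-like gene Chil3 (5.66, SE 1.00) and arginase Arg1 (4.75, SE 1.46), the latter only without resected spleen library 3 or intact blood library 3 among the 12 omissions (4.26 to 8.24). Il1rn, Bcl3, Cxcl10, Chil3 and the Id2 value in blood were called whichever of the 12 libraries was left out, Chil3 at 5.06 without resected blood library 3.

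With the 3 libraries that stand apart left out, 31 of 98 pathway genes were called in blood and 8 of 98 in spleen, against 34 and 3 of 99 with them. In blood the calls of Socs2 (1.00), Socs7 (-0.85), Ptpn1 (0.62), Csf2ra (0.95), Il10rb, Ifnar2 and Bcl2l1 (1.16) were lost, as was that of Bcl2l1 in spleen (1.29). Calls were kept for Osm (3.49), Il6 (5.12), Il10 (5.25), Il1rn (3.81), Bcl3 (1.45), Cxcl10 (4.20) and Chil3 (4.62). Receptor genes called at smaller values were Csf3r (1.34), Lepr (3.55), Csf2rb2 (1.72), Csf2rb (1.13), Il15ra (1.39), Il13ra1 (1.06) and Ifnlr1 (1.49), and Arg1 was called at a larger one (8.18). With only the groups compared in the fit, the blood calls of Socs2, Socs7, Ptpn1, Csf3r, Lepr, Csf2ra, Csf2rb, Il15ra, Il13ra1, Il10rb, Ifnlr1, Bcl3, Isg15, Ccnd2 and Arg1 and the splenic call of Bcl2l1 were lost, with edgeR adjusted p from 0.0515 to 0.118 and nearly the same log2 values.

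**Figure D3:**
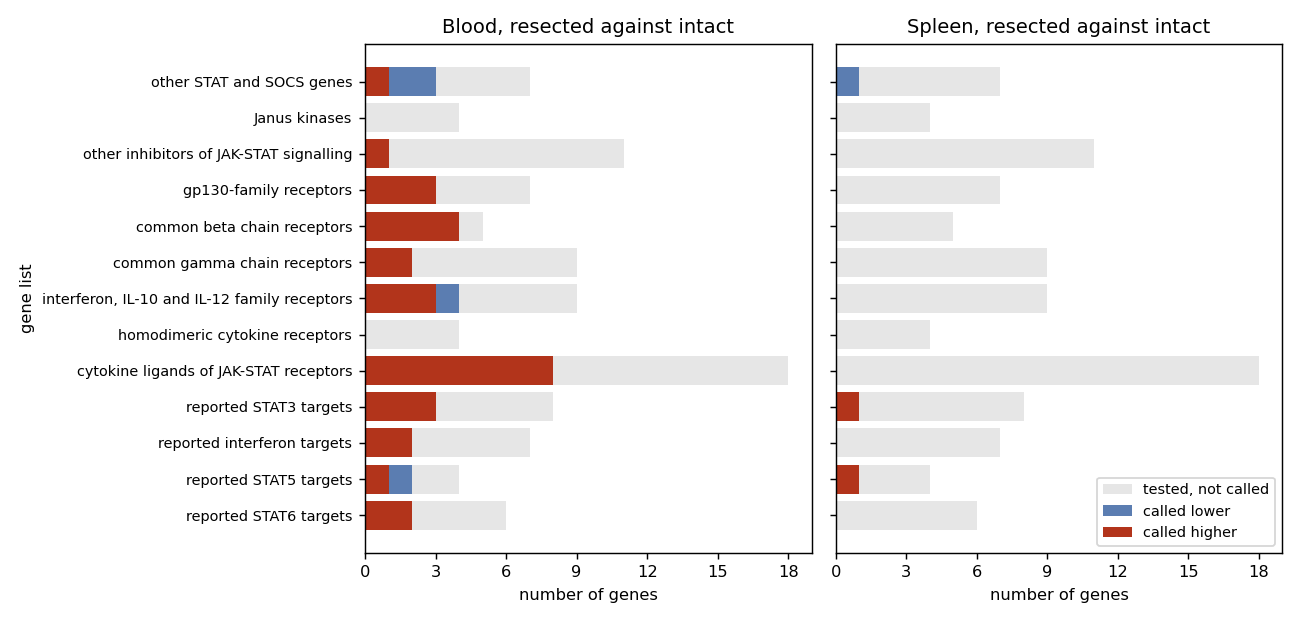
Number of tested genes in each of 13 lists (bar length), with genes called higher in red, called lower in blue and not called in grey, for resected against intact blood (left) and spleen (right). In blood 34 of 99 genes were called, 8 of them ligands, and in spleen 3.

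For Socs3, Cish and Stat4 the features most alike over the 12 libraries were listed by Pearson correlation of log2 CPM among 15680 features with a symbol. The libraries share 4 groups, so these values describe a pattern across groups and carry no test. Socs3 was followed most closely by Slc39a14 (r = 0.974), 9530068E07Rik (0.972), Itgb2 (0.971), Nus1 (0.971) and Stx12 (0.971). Slc39a14 encodes a zinc and iron transporter and Itgb2 the beta 2 integrin chain of leukocytes. Cish was followed by Car5b (0.957), Olfr920 (0.957), Tnip3 (0.952) and Fam20a (0.946). Stat4 had looser neighbours, Itgb3 (0.927), Syt11 (0.917), Zfp879 (0.904), Atp1b1 (0.899) and Nlrc5 (0.885).

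**Figure D4:**
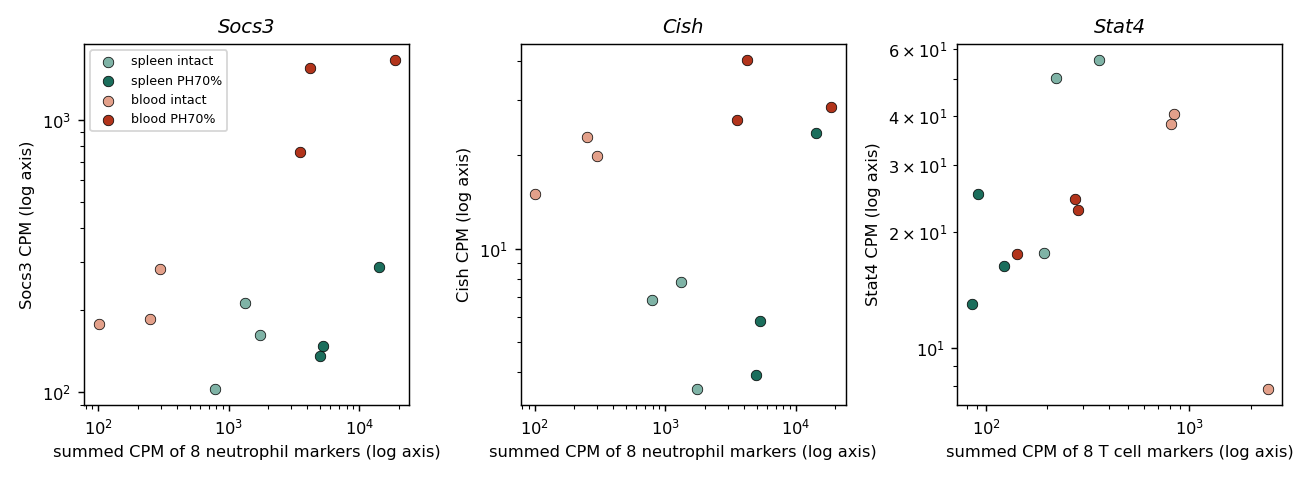
Level of Socs3 and Cish against the summed CPM of 8 neutrophil markers, and of Stat4 against that of 8 T cell markers, with a point per library and log axes. Resected spleen and resected blood cover similar neutrophil sums, 4971 to 14195 and 3513 to 18617 CPM, at Socs3 levels of 136 to 288 and 759 to 1648 CPM. Macrophage marker sums, which were also higher in resected than in intact blood, are not shown.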

How the data were processed

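CD115+ cells of blood and spleen were measured by mRNA sequencing in 12 libraries. The submitters' processing notes name STAR and GRCm39, and the counting tool and annotation are not given in the sources used here. The deposited values are estimated counts per transcript or gene entry, not whole for 6 of the 9 genes in some library. Entries of 1 gene were summed, entries named only as unassigned transcripts (1.75% to 4.33% of counts) entered neither the library sizes nor the tests, and values were rounded. No accession entry matched any of the 9 genes. Libraries were grouped by their titles.

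Features were filtered with filterByExpr, scaled by TMM and fitted with robust quasi-likelihood tests in edgeR 4.0.16 (R 4.3.3) over all 12 libraries and 4 groups, with Benjamini-Hochberg adjustment over 20135 features and an absolute log2 fold change above 1 for calls. CPM came from the same library sizes, standard errors from the fold change and its F statistic. The script was tested on simulated data. Alternatives were RLE factors, other count filters, haemoglobin genes left out, entries as deposited, a fit without robust shrinkage, only the groups compared, a replicate block, no fold limit, DESeq2 1.42.0, each library left out and, chosen after seeing the data, the 3 libraries that stand apart left out.

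All 9 genes are described. In each list, up to 3 called genes with the smallest p in each direction in blood, and any called in spleen, are named, and exceptions are stated. A few list results and 1 neighbour of Cish are not reported here. Members and lists were chosen with earlier results of these data known. Promoter windows are those of RefSeq, and all 9 genes matched by symbol.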

Additional observations from a re-analysis of the deposited data

Results flagged for a closer look

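Oncostatin M (Osm), a ligand that signals through gp130 and STAT3, responded differently to resection in the 2 tissues. The log2 resection effect in blood exceeded that in spleen by 3.73 (SE 0.59, edgeR adjusted p = 0.0433 for the interaction). In blood all 3 resected libraries, at 199 to 371 CPM, lay above the intact ones, at 13.2 to 30.3 CPM, while in spleen the groups overlapped. The difference was 3.39 to 4.12 with any 1 library left out, but it held as a call only without resected spleen library 3 or intact blood library 1 and not in the other 10 omissions, nor without the low-count filter or with a replicate block.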

How the results depend on the processing

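The count of the 9 genes called in blood after resection rose from 1 to 2 with no fold limit and without the 3 libraries that stand apart. In intact animals the count between tissues, 1, became 2 with no fold limit, with DESeq2 and without those 3 libraries, and 0 with only the groups compared. In resected animals it rose from 2 to 4 with DESeq2 and without the 3 libraries, and the count for the difference between tissues rose from 0 to 1 with DESeq2. With 1 library left out at a time the counts ran from 1 to 1 in blood, 0 to 0 in spleen, 0 to 2 between tissues in intact and 2 to 4 in resected animals, and 0 to 0 for the difference. Causes of these changes were not tested.

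Of 45 log2 values of the 9 genes, some changed sign, none of them called. Without the 3 libraries that stand apart these were Stat6 in blood (-0.20), Socs3 (-0.16) and Cish (-0.31) in spleen, Stat3 (0.06), Stat4 (0.04) and Stat6 (0.07) between tissues in intact animals, and Cish for the difference (0.94). With 1 library left out the ranges that crossed 0 were -0.08 to 0.19 for Stat6 in blood, and in spleen -0.52 to 0.02 for Stat3, -0.11 to 0.05 for Stat5a, -0.16 to 0.53 for Socs3 and -0.31 to 1.28 for Cish. Between tissues in intact animals they were -0.23 to 0.08 for Stat3, -0.78 to 0.04 for Stat4 and -0.22 to 0.07 for Stat6, and for the difference -0.20 to 0.11 for Stat2, -0.56 to 1.02 for Cish and -0.46 to 0.29 for Pim1.

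Libraries of equal replicate number were not treated as pairs, and correlations of their deviations lay between -0.046 and 0.189. Between tissues in resected animals they were 0.042, 0.131 and 0.189, while those of unequal numbers ran from -0.186 to 0.073. Whether blood and spleen libraries of equal number came from the same mice is not given in the sources used here. With the number as a replicate block the counts of called genes were 1 in blood, 0 in spleen, 1 and 2 between tissues and 0 for the difference, as without it. With 3 libraries per group, even changes well above their standard error went uncalled, as for Stat2 in spleen at -0.77 (SE 0.19, edgeR adjusted p = 0.0656). A gene that was not called is therefore not shown to be unchanged. The median of all features between tissues in resected animals moved from -0.14 to -0.02 when haemoglobin genes were left out, and from -0.02 to 0.10 in intact animals, and RLE factors gave -0.03 and 0.05.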
